A study of Mus musculus with 14 samples.

Results

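The nuclear genes that copy, package and transcribe mitochondrial DNA were followed in LLC1 tumours, grown in mice from a Lewis lung carcinoma line of the mouse, after treatment with a MYC inhibitor, a class IIa HDAC inhibitor, or both. The 10 genes (Tfam, Tfb1m, Tfb2m, Polrmt, Polg, Polg2, Twnk, Ssbp1, Nrf1 and Gabpa) were chosen by their known roles, with earlier results of these data known. They were sought by symbol among the 21152 Ensembl gene IDs of the deposited expression table. All 10 were found, and all 10 were among the 13711 genes whose mean over libraries lay high enough above the lowest value of the table to be tested.

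The mice carried LLC1 tumours and were treated for 16 days with DMSO, the vehicle (4 libraries), MYCi975 at 50 mg/kg (4 libraries), TMP195 at 50 mg/kg (3 libraries) or the combination of MYCi975 and TMP195 (3 libraries, with no doses of its own in the labels). MYCi975 is a small molecule that binds MYC, and TMP195 inhibits class IIa histone deacetylases. The labels used here do not state the strain, sex or age of the hosts. The cell line was the same in every group, so each tumour is the same single line in a host whose immune and stromal cells remain in the sample. RNA came from dissociated whole tumour, described in one label as an enriched tumour population, and total RNA libraries were sequenced. The labels do not say that the libraries of a group came from separate mice, so p-values measure the spread between libraries, which may be technical.

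Mitochondrial DNA is a small circular genome present in many copies per cell, which encodes a few respiratory chain subunits and the ribosomal and transfer RNAs needed to translate them. Everything that maintains it is encoded in the nucleus. TFAM coats the DNA and bends its promoters, TFB2M opens the promoter and POLRMT is the RNA polymerase. TFB1M methylates the small ribosomal RNA. POLG and its accessory subunit POLG2 form the DNA polymerase, Twinkle (Twnk) is the helicase and SSBP1 is the single-stranded DNA binding protein. NRF1 and GABPA (also called NRF2, unrelated to the stress factor of that name) are nuclear transcription factors known to bind promoters of several of these genes, and MYC is known to bind many promoters of mitochondrial genes.

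Since 2 of the 10 genes encode factors that bind such promoters, the RefSeq promoters of the members (build GRCm38.p6, 250 bases before to 50 after the start of transcription, 12 windows for the 10 genes) were searched on both strands for 4 short motifs. The string CCGGAAG, bound by GABPA and other ETS factors, occurred in windows of 7 of the 10 genes (Tfam, Polrmt, Polg, Polg2, Twnk, Ssbp1 and Gabpa itself). Counted by window, it occurred in 7 of the 12 member windows, in 8.86% of all 32851 windows of this length and in 17.8% of the 12180 windows of tested genes. The NRF1 palindrome, GCGC and GCGC with AT between them, was in none of the 12 windows (0.971% of all windows, 2.07% of those of tested genes). Its relaxed form, with any 2 bases between, which includes the full one, was in that of Polrmt alone (6.23% of all windows, 12.8% of those of tested genes), and the MYC E-box CACGTG was in none (7.15% of all windows, 9.75% of those of tested genes). A match is a description of letters and not of binding, and the absence of a string says only that these letters are not in these windows.

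The 150 bases before the start are shown for the members on which the results below turn, 5′ to 3′ on the gene's strand, with CCGGAAG or its reverse complement CTTCCGG in capitals. Tfam, Tfb2m and Ssbp1 are shown because they had the largest negative differences from vehicle under TMP195, and Polg2 because it ran against the mitochondrial transcripts. Polrmt and Polg are shown as the polymerases of the transcription and replication machinery. The windows are chr10:71238045-71238194 (minus strand) for Tfam, chr1:179546277-179546426 (minus) for Tfb2m, chr6:40471318-40471467 (plus) for Ssbp1, chr11:106779538-106779687 (minus) for Polg2, chr10:79746582-79746731 (minus) for Polrmt and chr7:79466274-79466423 (minus) for Polg.
Tfam: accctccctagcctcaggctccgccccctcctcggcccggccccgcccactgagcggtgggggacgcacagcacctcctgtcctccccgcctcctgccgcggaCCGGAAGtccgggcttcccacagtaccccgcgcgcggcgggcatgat
Tfb2m: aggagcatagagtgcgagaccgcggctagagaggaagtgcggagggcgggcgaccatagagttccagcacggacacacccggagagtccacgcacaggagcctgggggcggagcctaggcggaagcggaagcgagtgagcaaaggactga
Ssbp1: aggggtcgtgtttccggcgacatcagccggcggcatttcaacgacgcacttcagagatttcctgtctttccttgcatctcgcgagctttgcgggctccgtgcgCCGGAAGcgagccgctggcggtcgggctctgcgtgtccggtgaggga
Polg2: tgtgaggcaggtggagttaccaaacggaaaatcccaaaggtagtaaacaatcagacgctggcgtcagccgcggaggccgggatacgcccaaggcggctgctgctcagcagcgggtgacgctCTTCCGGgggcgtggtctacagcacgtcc
Polrmt: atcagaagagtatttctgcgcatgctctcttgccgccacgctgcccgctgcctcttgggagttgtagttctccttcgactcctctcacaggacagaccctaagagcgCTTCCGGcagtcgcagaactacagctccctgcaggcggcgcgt
Polg: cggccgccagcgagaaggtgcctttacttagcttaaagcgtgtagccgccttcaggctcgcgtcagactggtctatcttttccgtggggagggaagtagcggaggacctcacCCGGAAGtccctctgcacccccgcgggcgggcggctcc
Counted from the start of transcription, the string lay at -47 to -41 in both Tfam and Ssbp1, at -38 to -32 in Polg, and, on the opposite strand, at -43 to -37 in Polrmt and -29 to -23 in Polg2. Tfb2m had no exact match.

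Expression is given on the authors' variance-stabilised log2 scale, where 1 unit is about a doubling for well expressed genes and stands for a larger change near the floor of 4.05, the value given to undetected genes in every library. The scale is not corrected for gene length, so levels were compared between groups and not between genes. Between 880 and 2954 genes per library lay at the floor, and the depth of the libraries is unknown. Transcripts of host cells were present in every group: the leukocyte gene Ptprc had group means between 10.04 (combination) and 10.85 (MYCi975). The keratins Krt8 and Krt18 were present in every group (means from 8.09 to 8.80), whereas Epcam lay near the floor (4.27 to 4.55). Of the 5 listed carcinoma epithelium genes 3 were tested, and the others lay too near the floor. Lung epithelial markers were not analysed here. Myc itself, the target of MYCi975, had means of 8.97 in vehicle, 9.13 under MYCi975, 9.04 under TMP195 and 9.07 under the combination. In such bulk samples fewer cells of a type and less RNA per cell cannot be told apart.

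No member passed the test in any comparison. With limma over all 13711 genes and Benjamini-Hochberg adjustment at 0.05, 0 of the 10 members and 0 genes in all (0.0%) were called for MYCi975, for TMP195 and for the combination against vehicle, and likewise for the combination against each single agent and for the interaction of the agents. Unadjusted p-values below 0.05 numbered 457, 381 and 470 genes for MYCi975, TMP195 and the combination against vehicle. They numbered 1120 for the combination against MYCi975, 603 against TMP195 and 656 for the interaction. The members are therefore described by their values, intervals and ranges.

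Among the transcription factors of the mitochondrial genome, Tfam (ENSMUSG00000003923.15) measured 7.69, 7.70, 7.62 and 8.44 in the vehicle libraries. Under MYCi975 it measured 7.83, 7.79, 7.59 and 7.88, under TMP195 7.53, 7.39 and 7.56, and under the combination 7.51, 7.33 and 7.54. All 6 libraries given TMP195, alone or with MYCi975, lay below all 8 libraries without it (7.33 to 7.56 against 7.59 to 8.44), although the nearest libraries of the 2 sides were almost equal (7.56 and 7.59). The group means were 7.86 ± 0.39 (SD, n = 4) in vehicle, 7.77 ± 0.13 (n = 4) under MYCi975, 7.49 ± 0.09 (n = 3) under TMP195 and 7.46 ± 0.11 (n = 3) under the combination. Against vehicle the difference was -0.37 under TMP195 (95% interval -0.74 to 0.01, limma adjusted p = 0.9996). Under the combination it was -0.40 (-0.78 to -0.02, limma adjusted p = 0.992). Under MYCi975 it was -0.09 (-0.44 to 0.26).

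Vehicle replicate 4 weighs on these Tfam values, since it lay 0.75 above the next vehicle library. Without it the Tfam difference was -0.17 for TMP195, -0.21 for the combination and 0.11 for MYCi975, and its adjusted p was 0.9999 for TMP195 and 0.9998 for the combination. The same library had the highest Tfb2m and Ssbp1 of all 14 libraries. It also had the highest level of mitochondrially encoded mRNA (1.19 above the mean over libraries), 2744 genes at the floor, and the lowest level of skeletal muscle genes in its group (-1.82, centred over libraries). The part of these features in the Tfam difference was not tested.

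Tfb2m (ENSMUSG00000026492.12) measured 7.55, 8.31, 7.52 and 8.51 in vehicle, 7.86, 7.35, 7.59 and 7.72 under MYCi975, 7.39, 7.54 and 7.43 under TMP195, and 7.67, 7.73 and 7.45 under the combination. The vehicle libraries split into a high pair (replicates 2 and 4) and a low pair that overlapped every treated group. The vehicle mean of 7.97 ± 0.51 (SD, n = 4) exceeded the means of the treated groups, which were 7.63 ± 0.22 (n = 4) for MYCi975, 7.46 ± 0.08 (n = 3) for TMP195 and 7.62 ± 0.15 (n = 3) for the combination. The difference for TMP195 was -0.52 (95% interval -0.98 to -0.05, limma adjusted p = 0.9996). It was -0.34 (-0.77 to 0.09) for MYCi975 and -0.35 (-0.82 to 0.11) for the combination. Without vehicle replicate 4 these became -0.34, -0.16 and -0.17 in the same order, so each value moved by over 1.5 times.

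Polrmt (ENSMUSG00000020329.13), the mitochondrial RNA polymerase, was tight in vehicle (6.56, 6.69, 6.67 and 6.72) and wide under MYCi975 (6.45, 7.21, 7.39 and 6.87). It measured 6.82, 7.04 and 6.62 under TMP195 and 7.02, 6.39 and 6.79 under the combination. The MYCi975 group held both a library below all vehicle libraries and 3 above them. Its difference from vehicle was 0.32 (95% interval -0.09 to 0.73), that of TMP195 was 0.17 (-0.28 to 0.61) and that of the combination 0.07 (-0.37 to 0.52). The MYCi975 value was 0.18 without MYCi975 replicate 3 and 0.50 without replicate 1, and the TMP195 value was 0.06 without TMP195 replicate 2 and 0.27 without replicate 3. That of the combination was -0.07 without combination replicate 1 and 0.25 without replicate 2.

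Tfb1m (ENSMUSG00000036983.8), the ribosomal RNA methyltransferase and paralogue of Tfb2m, had nearly level group means. They were 5.76 ± 0.26 (SD, n = 4) in vehicle, 5.76 ± 0.21 (n = 4) under MYCi975, 5.70 ± 0.19 (n = 3) under TMP195 and 5.79 ± 0.12 (n = 3) under the combination. The range over all 14 libraries was 5.49 to 6.09, and each group overlapped each other group. The differences from vehicle lay between -0.06 (TMP195, 95% interval -0.43 to 0.30) and 0.02 (combination, -0.34 to 0.39).

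**Figure D1:**
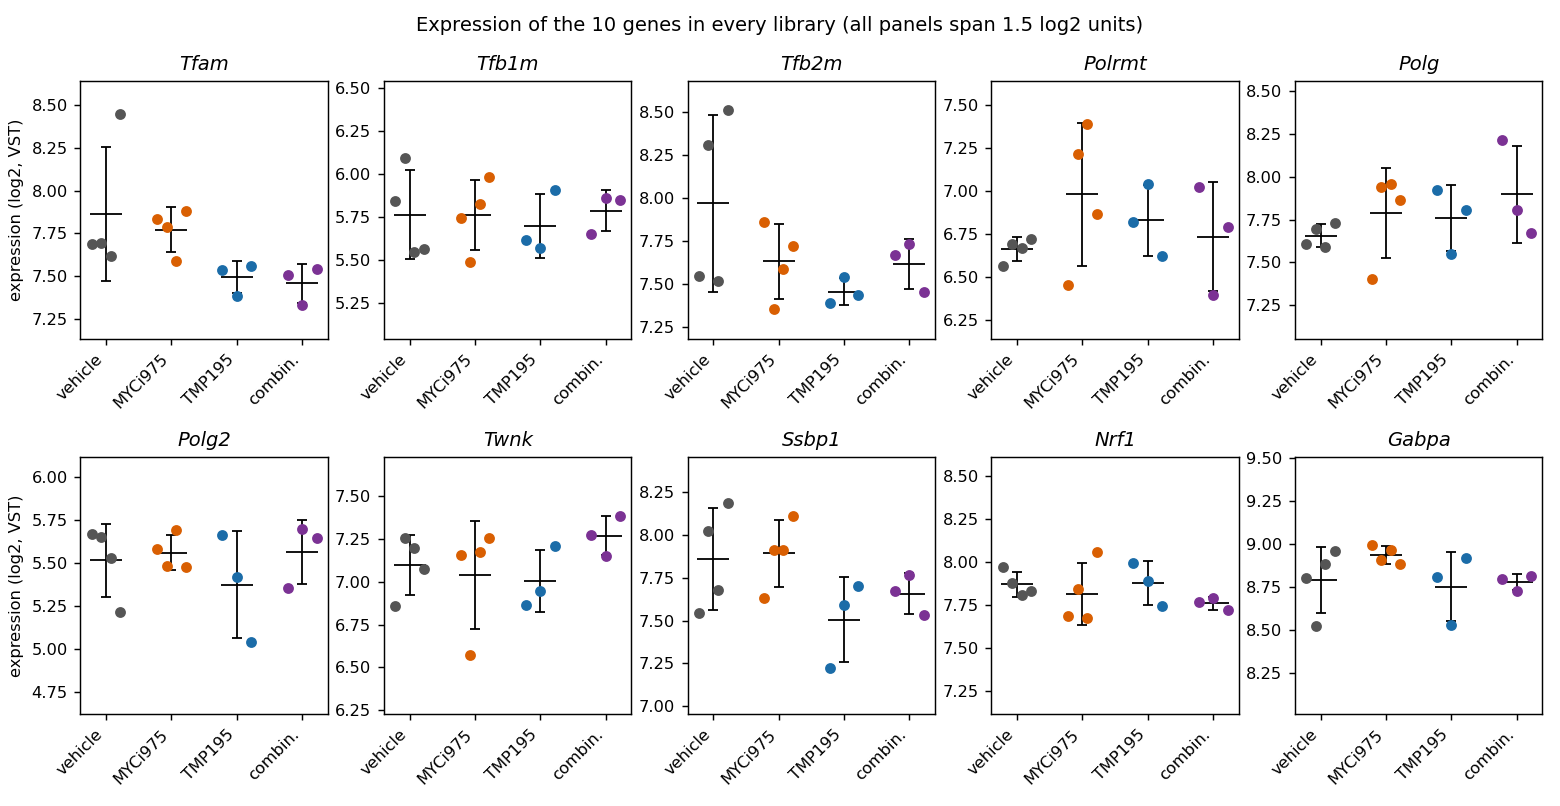
Level of each of the 10 genes (log2, variance-stabilised, y axis) in every library by group (x axis), with a line at each group mean and bars of 1 SD. The 6 Tfam values of the libraries given TMP195 lie between 7.33 and 7.56, below the 8 others, and vehicle replicate 4 stands at 8.44.

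Of the replication genes, Ssbp1 (ENSMUSG00000029911.15) had its lowest group mean under TMP195, as did Polg2 and Twnk. Ssbp1 measured 7.54, 8.02, 7.68 and 8.18 in vehicle, 7.63, 7.91, 7.91 and 8.11 under MYCi975, 7.22, 7.59 and 7.70 under TMP195, and 7.67, 7.77 and 7.53 under the combination. The groups overlapped, with the lowest library in the TMP195 group and the highest in vehicle. The difference from vehicle was -0.35 for TMP195 (95% interval -0.72 to 0.02, limma adjusted p = 0.9996), -0.20 (-0.57 to 0.17) for the combination and 0.03 (-0.31 to 0.38) for MYCi975. Without TMP195 replicate 1 the value for TMP195 was -0.21, and without vehicle replicate 4 that for the combination was -0.09.

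Polg (ENSMUSG00000039176.18), the catalytic subunit of the DNA polymerase, measured 7.61, 7.69, 7.59 and 7.73 in vehicle and 7.40, 7.94, 7.95 and 7.86 under MYCi975. It measured 7.92, 7.55 and 7.81 under TMP195 and 8.21, 7.81 and 7.67 under the combination. In the MYCi975 group 3 libraries exceeded all vehicle libraries and 1 lay below all of them, and replicate 1 was the low library for Polg and for Polrmt alike. The differences from vehicle were 0.14 (95% interval -0.19 to 0.46), 0.11 (-0.25 to 0.46) and 0.24 (-0.11 to 0.59) for MYCi975, TMP195 and the combination. Each moved with single libraries. It was 0.27 for MYCi975 without MYCi975 replicate 1, 0.02 for TMP195 without TMP195 replicate 1 and 0.21 without replicate 2, and 0.08 for the combination without combination replicate 1.

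Its accessory subunit Polg2 (ENSMUSG00000020718.13) had means of 5.51 ± 0.21 (SD, n = 4) in vehicle, 5.56 ± 0.10 (n = 4) under MYCi975, 5.37 ± 0.31 (n = 3) under TMP195 and 5.56 ± 0.19 (n = 3) under the combination. The lowest library was TMP195 replicate 3 (5.04), followed by vehicle replicate 4 (5.21), and the differences from vehicle lay between -0.14 (TMP195, 95% interval -0.51 to 0.23) and 0.05 (combination, -0.32 to 0.42). Without TMP195 replicate 3 the TMP195 value turned to 0.02, and without replicate 1 it was -0.28. That of the combination turned to -0.05 without vehicle replicate 4. The helicase gene Twnk (ENSMUSG00000025209.6) measured 6.86, 7.26, 7.20 and 7.07 in vehicle and 7.16, 6.57, 7.17 and 7.26 under MYCi975. It measured 6.86, 6.95 and 7.21 under TMP195 and 7.27, 7.15 and 7.38 under the combination. Its combination libraries lay in the upper part of the range without standing apart, with a difference from vehicle of 0.17 (-0.20 to 0.54), which was 0.09 without vehicle replicate 1.

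The nuclear regulators Nrf1 and Gabpa varied least of the 10 genes within groups. Nrf1 (ENSMUSG00000058440.15) stayed between 7.67 and 8.05 in all 14 libraries, and its SD within groups of 0.12 was at percentile 3.73 of the 13711 tested genes, whose median was 0.24. Gabpa (ENSMUSG00000008976.17) stayed between 8.52 and 8.997, with an SD within groups of 0.14, at percentile 8.08. At the other end Tfb2m (SD 0.31) was at percentile 73.5 and Polrmt (0.29) at percentile 66.2. Nrf1 had means of 7.87 ± 0.07 (SD, n = 4) in vehicle, 7.81 ± 0.18 (n = 4) under MYCi975, 7.88 ± 0.13 (n = 3) under TMP195 and 7.76 ± 0.04 (n = 3) under the combination. Its 3 combination libraries (7.72 to 7.79) lay just below the 4 vehicle libraries (7.81 to 7.97), with a difference of -0.11 (95% interval -0.38 to 0.15).

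Gabpa had means of 8.79 ± 0.19 (SD, n = 4) in vehicle, 8.94 ± 0.05 (n = 4) under MYCi975, 8.75 ± 0.20 (n = 3) under TMP195 and 8.78 ± 0.04 (n = 3) under the combination. Its MYCi975 libraries were the highest as a group (8.88 to 8.997) and overlapped vehicle, whose highest library was 8.96. They did not overlap the combination libraries (8.73 to 8.81), which lay 0.16 lower (95% interval for the combination minus MYCi975 -0.43 to 0.11).

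**Figure D2:**
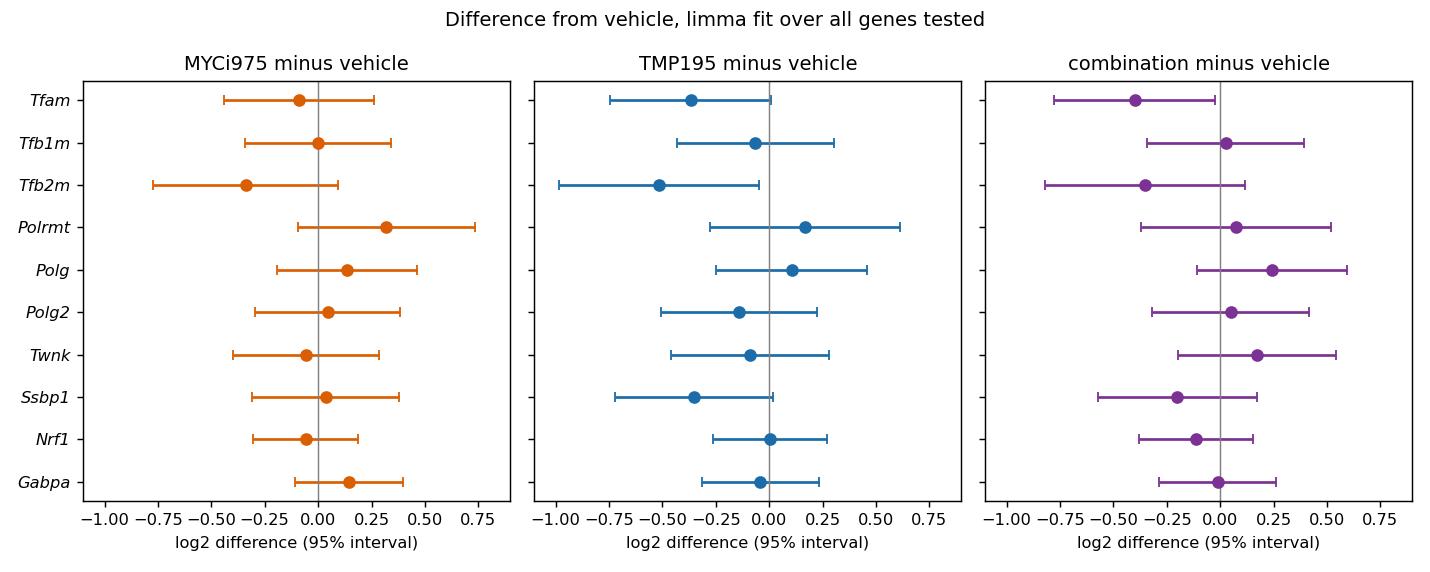
Difference of each of the 10 genes from vehicle (x axis, log2) in the 3 treated groups, with the 95% interval of the limma fit. The intervals of Tfb2m under TMP195 (-0.98 to -0.05) and of Tfam under the combination (-0.78 to -0.02) leave out 0, and neither passed after adjustment over all genes.

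Counted over the members, 5 lay above and 5 below vehicle under MYCi975, 3 above and 7 below under TMP195, and 5 above and 5 below under the combination. Over all tested genes 48.3%, 49.2% and 50.3% lay below vehicle in the same order. The median member differences were 0.02, -0.08 and 0.01, beside medians over all genes of 0.01, 0.004 and -0.002. These comparisons share the same vehicle libraries. Libraries entirely below vehicle were found for 1 member under TMP195 (Tfam, against 1.87% of all genes) and for 2 under the combination (Tfam and Nrf1, against 3.27%). An unadjusted limma p below 0.05 with a lower value was found for 1 member under TMP195 (Tfb2m, against 1.31% of all genes) and 1 under the combination (Tfam, against 1.35%).

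Against the single agents, the combination lay below MYCi975 for 6 members and above for 4 (49.8% of all genes lay below), and below TMP195 for 3 and above for 7 (48.9% below). Tfam and Gabpa in the combination lay entirely below MYCi975 (3.97% of all genes did). The Tfam difference there was -0.31 (95% interval -0.69 to 0.07, limma adjusted p = 0.629). Against TMP195 the Tfam difference was -0.03 (-0.44 to 0.37), so the groups that received TMP195 differed from one another by less than the spread of their libraries. The interaction, which is the combination minus both single agents plus vehicle, was above 0 for 7 members and below for 3 (49.8% of all genes below), with the largest values for Tfb2m (0.50, -0.16 to 1.16) and Polrmt (-0.41, -1.04 to 0.22). Neither interval left out 0, and the values were 0.32 for Tfb2m without vehicle replicate 4 and -0.24 for Polrmt without combination replicate 2.

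Because Tfam separated the libraries by TMP195, the mean of both groups given TMP195 was also set against the mean of both groups without it, a contrast chosen after the values were seen. Tfam differed by -0.34 (95% interval -0.61 to -0.07, limma adjusted p = 0.890), with 6 of 6 libraries below all the others. Taken as a fold, the level was about 0.79 times that without TMP195. Ssbp1 differed by -0.29 (-0.56 to -0.03, limma adjusted p = 0.890) and Tfb2m by -0.26 (-0.60 to 0.07, limma adjusted p = 0.890), both with overlapping libraries. Tfam and Ssbp1 were the 2 members with an unadjusted limma p below 0.05 and a lower value, against 2.57% of all genes. In all, 8 members lay below 0 and 2 above (51.1% of all genes below).

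Of the 13711 genes 5 (0.0365%) lay entirely lower in the libraries given TMP195. They were Tfam, Usp15, Ahsa1, Rad21 and 1 gene without a symbol, and Ints1 alone lay entirely higher (0.00729%), all named after their values were seen. Random division of the libraries into sides of these sizes would be expected to separate about as many genes. In this contrast 0 genes (0.0%) passed limma's adjusted threshold and 729 had an unadjusted p below 0.05. Without vehicle replicate 4 the Tfam difference was -0.24 (limma adjusted p = 0.958), in the range of -0.38 to -0.22 over all alternatives, and that of Tfb2m was -0.17. The same contrast for MYCi975 gave a Tfam difference of -0.06 (-0.33 to 0.20), 7 members above 0 and 3 below (49.5% of all genes below), and 0 called genes (0.0%) with 396 at an unadjusted limma p below 0.05.

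Marker levels were compared beside these values. Of the skeletal muscle list 3 of 6 genes were tested, and the others lay too near the floor. The mean level of the 3, centred over libraries, was -1.63 to -0.83 in TMP195 and -1.82 to 2.80 in vehicle, and all 3 genes lay below vehicle under TMP195 and under the combination (-1.97 to 0.47). All 5 leukocyte genes lay below vehicle under the combination, with list levels of -0.82 to -0.37 against -0.39 to 0.25 in vehicle, whereas all 5 lay above it under TMP195 (-0.19 to 0.70). The 16 cell cycle genes ranged from -0.18 to -0.01 in TMP195, 0.05 to 0.10 in the combination and -0.11 to 0.25 in vehicle. In the contrast of libraries given TMP195 or not, in which Tfam was lower, all 5 leukocyte genes (median -0.28) and the 3 tested muscle genes (median -1.41) also lay below 0. In the same contrast for MYCi975, where the Tfam difference was -0.06, all 5 leukocyte genes lay below 0 as well (median -0.28). Of the muscle genes 2 lay above 0 and 1 below there. Tfam correlated with the leukocyte list at r = 0.19 over 14 libraries (permutation p = 0.4795, adjusted over 40 relations 0.978, rho = 0.36, p = 0.209, r = 0.28 without the 2 farthest libraries). With the cell cycle list it gave r = -0.25 (permutation p = 0.398, adjusted 0.936, rho = -0.31, p = 0.272, r = -0.23 without the 2 farthest). With the skeletal muscle list it gave r = -0.10 (permutation p = 0.743, adjusted 0.978, rho = 0.22, p = 0.454, r = -0.18 without the 2 farthest). With deviations from group means r was -0.65 for the muscle list, -0.41 for the cell cycle list and 0.01 for the leukocyte list. The muscle value keeps vehicle replicate 4, which had the highest Tfam (8.44) and the lowest muscle level of its group (-1.82). It was not recomputed without that library. The 2 farthest libraries left out above for the muscle list were MYCi975 replicate 2 and vehicle replicate 3. The part of cell composition in the Tfam values was not tested.

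The members were next compared with one another from library to library. Over the 45 pairs Pearson's r across the 14 libraries was above 0 for 20 and below for 25, with a median of -0.02. No pair passed after adjustment over the 45 (5 had an unadjusted permutation p below 0.05, and the smallest adjusted p was 0.320). The strongest pair was Tfam with Tfb2m (r = 0.66, permutation p = 0.021, adjusted 0.320, Spearman's rho = 0.35, p = 0.229, adjusted 0.9745). Tfb2m with Ssbp1 gave r = 0.65 (permutation p = 0.011, adjusted 0.320, rho = 0.53, p = 0.057, adjusted 0.510) and Tfam with Ssbp1 r = 0.62 (p = 0.019, adjusted 0.320, rho = 0.55, p = 0.045, adjusted 0.510).

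These 3 relations rest on few libraries. When the 2 libraries with the most extreme level of the first gene (farthest from its median) were left out, r was 0.18 for Tfam with Tfb2m and 0.25 for Tfam with Ssbp1 (both without vehicle replicate 4 and MYCi975 replicate 4) and 0.33 for Tfb2m with Ssbp1 (without vehicle replicates 2 and 4). With each library taken as its deviation from its group mean they were 0.59, 0.44 and 0.63, values that keep vehicle replicate 4. The most negative pairs were Twnk with Nrf1 (r = -0.37, permutation p = 0.189, adjusted 0.986, rho = -0.39, p = 0.164) and Tfam with Polg2 (r = -0.34, permutation p = 0.221, adjusted 0.986, rho = -0.23, p = 0.4345). Left without its own 2 extreme libraries, Tfam with Polg2 gave r = 0.08 (vehicle replicate 4 and MYCi975 replicate 4 removed) and Twnk with Nrf1 gave -0.40 (MYCi975 replicate 2 and vehicle replicate 1 removed). With deviations from group means r was -0.62 for Tfam with Polg2 and -0.29 for Twnk with Nrf1. These values again keep every library, and that of Tfam with Polg2 was not recomputed without vehicle replicate 4.

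**Figure D3:**
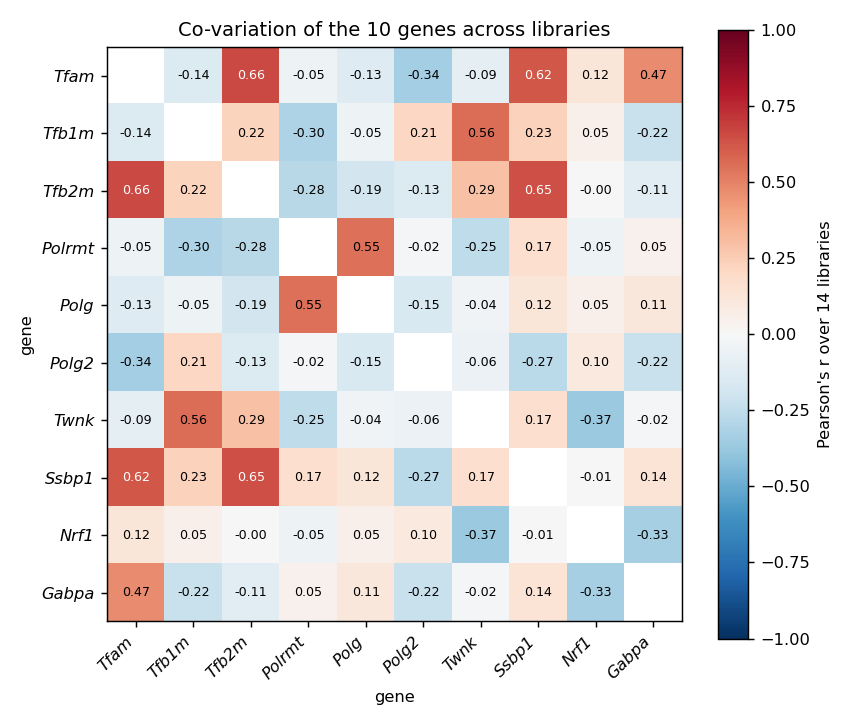
Pearson's r between each pair of the 10 genes over 14 libraries, with both axes listing the genes and the colour and printed value giving r. Tfam, Tfb2m and Ssbp1 form the block of the highest values (0.62 to 0.66), and none of the 45 pairs passed after adjustment.

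The RNA of the mitochondrial genome, which this machinery transcribes, was measured in the same libraries. Its 13 mRNAs varied far more between libraries than between groups: the SD of their mean level within a group ran from 0.64 (MYCi975) to 0.97 (TMP195), while the group means lay between -0.33 and 0.14. Under MYCi975 7 of the 13 lay above vehicle and 6 below, with a median difference of 0.03. Under TMP195 2 lay above and 11 below (median -0.15), and under the combination 0 above and 13 below (median -0.49), with none called. The 13 mRNAs are cut from long shared precursors, so they are not independent observations. The large ribosomal RNA mt-Rnr2 had means of 22.15 in vehicle, 22.35 under MYCi975, 22.10 under TMP195 and 21.74 under the combination.

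Each member was compared with the mean level of these 13 mRNAs and with the leukocyte, skeletal muscle and cell cycle lists, 40 relations in all, of which 16 were above 0 and 24 below. One passed after adjustment: Polg2 was lower in libraries with more mitochondrially encoded mRNA (r = -0.76, permutation p = 0.00107, adjusted 0.0428, rho = -0.82, p = 0.00072, adjusted 0.0288, n = 14 libraries). Without the 2 libraries farthest out (TMP195 replicate 1 and combination replicate 3) r was -0.77, and with deviations from group means it was -0.83. Polg2 gave r between -0.80 (mt-Co2) and -0.69 (mt-Nd3) with the 13 mRNAs taken singly, -0.74 with mt-Rnr1 and -0.71 with mt-Rnr2.

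The libraries show the relation at both ends. In TMP195 replicate 1, with the lowest mitochondrial mRNA level (-1.09, centred over libraries), Polg2 was 5.66, and in combination replicate 3 (-1.08) it was 5.64. In vehicle replicate 4, with the highest level (1.19), Polg2 was 5.21, and in TMP195 replicate 3 (0.76) it was 5.04. The adjusted p stood close to the threshold: leaving out 1 library at a time gave r from -0.80 to -0.70 with adjusted permutation p from 0.026 (without vehicle replicate 2) to 0.179 (without vehicle replicate 4). The relation stayed below 0.05 in 3 of these 14 runs, which left out TMP195 replicate 3, MYCi975 replicate 1 and vehicle replicate 2.

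The mitochondrial mRNA level also went with the number of genes at the floor (r = 0.65, permutation p = 0.013, adjusted over 2 relations 0.027, rho = 0.63, p = 0.018, r = 0.68 without the 2 farthest libraries). Polg2 ran the other way against that number (r = -0.44, permutation p = 0.115, adjusted 0.115, rho = -0.63, p = 0.018, r = -0.45 without the 2 farthest libraries). The part of the number of undetected genes in the Polg2 relation was not tested.

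**Figure D4:**
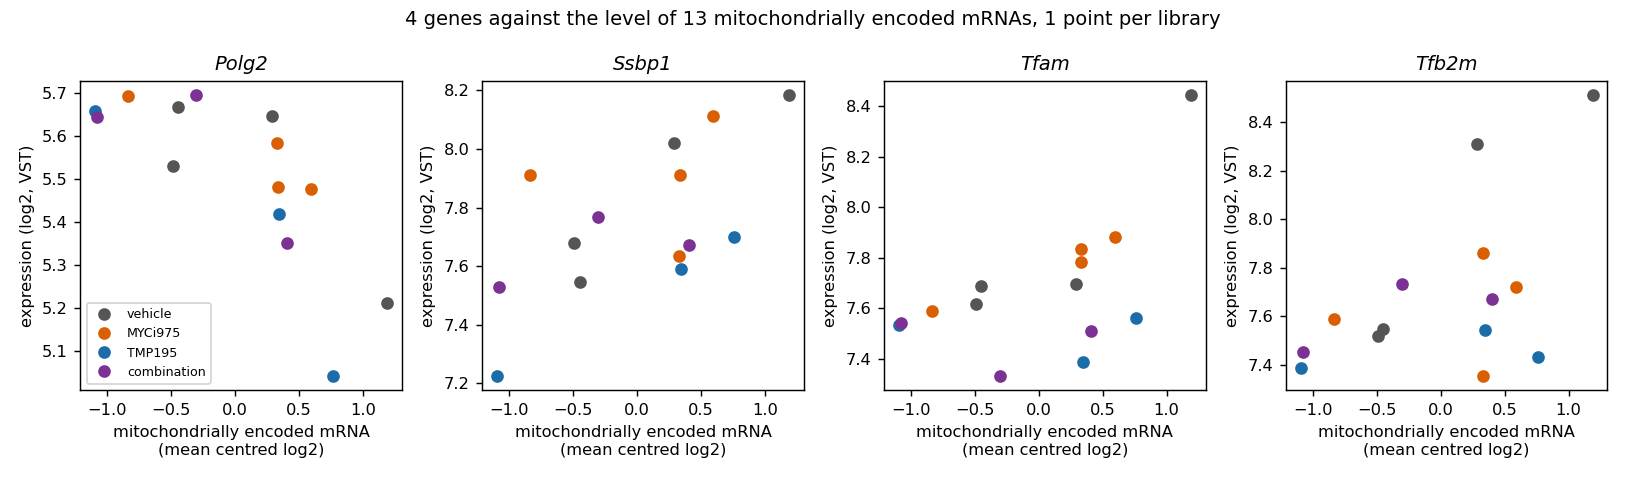
Level of Polg2 and of Tfam, Tfb2m and Ssbp1 (y axis, log2) against the mean centred level of the 13 mitochondrially encoded mRNAs (x axis, log2) in the 14 libraries, coloured by group. Polg2 falls along the axis (r = -0.76) while Ssbp1 (0.63), Tfam (0.55) and Tfb2m (0.53) slope upward without passing after adjustment.

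Ssbp1, Tfam and Tfb2m had the highest positive values with the mitochondrial mRNAs. They were r = 0.63 for Ssbp1 (permutation p = 0.016, adjusted 0.218, rho = 0.54, p = 0.048, adjusted 0.639), 0.55 for Tfam (p = 0.033, adjusted 0.332, rho = 0.35, p = 0.226) and 0.53 for Tfb2m (p = 0.046, adjusted 0.368, rho = 0.34, p = 0.234). Without the 2 farthest libraries they were 0.41, 0.56 and 0.44. Twnk was lower where leukocyte genes were higher (r = -0.64, permutation p = 0.016, adjusted 0.218, rho = -0.57, p = 0.037, adjusted 0.639, and r = -0.50 without the 2 farthest libraries), a relation that did not pass either.

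The partners of the 10 genes were taken from lists chosen by function, with earlier results of these data known. None of the listed genes was called in any comparison with vehicle. Of the elongation and termination factors, 5 of 6 were tested, and 2 lay above and 3 below vehicle under each treatment (medians -0.02, -0.09 and -0.10 for MYCi975, TMP195 and the combination). Mterf1a differed by 0.20 and the elongation factor gene Tefm by -0.16 under MYCi975, and Mterf2 by 0.22 under TMP195 and -0.28 under the combination. Replication and repair partners (12 of 13 tested) lay above vehicle for 8, 4 and 6 genes and below for 4, 8 and 6 (medians 0.07, -0.08 and -0.01). The exonuclease gene Exog differed by -0.24 under MYCi975 and -0.23 under the combination. Apex1, a base excision repair endonuclease, differed by -0.30 under TMP195.

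Nucleotide supply genes, which provide deoxynucleotides to mitochondria, all 10 tested, lay below vehicle for 5, 6 and 8 genes (medians 0.01, -0.06 and -0.09). Rrm2b, the small ribonucleotide reductase subunit of non-dividing cells, differed by 0.51 under TMP195 (95% interval 0.01 to 0.999, limma adjusted p = 0.9996). Samhd1, a deoxynucleotide hydrolase abundant in myeloid cells, differed by -0.64 under the combination (-1.42 to 0.15), the group in which all 5 leukocyte genes also lay lower. The list named nucleoid partners (8 tested) lay above vehicle for 6, 3 and 5 genes (medians 0.02, -0.02 and 0.03), with Phb at -0.27 under MYCi975. Cluh was at 0.20 under TMP195 and 0.27 under the combination. It was placed in this list, although its product is not a component of the nucleoid.

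Genes of mitochondrial RNA processing and decay (17 tested) lay above vehicle for 8, 9 and 6 genes (medians -0.01, 0.01 and -0.02). Fastkd3 differed by -0.34 under MYCi975 (95% interval -0.73 to 0.05). Fastkd2, whose product binds mitochondrial RNA, differed by -0.33 under TMP195 (-0.63 to -0.02, limma adjusted p = 0.9996). Under the combination Grsf1, which encodes an RNA granule protein, differed by -0.30 (-0.59 to -0.02, limma adjusted p = 0.992) and Tbrg4 by 0.58 (0.001 to 1.17, limma adjusted p = 0.992).

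Upstream regulators of the 10 genes (11 of 12 tested) lay above vehicle for 10, 8 and 8 genes and below for 1, 3 and 3 under MYCi975, TMP195 and the combination (medians 0.09, 0.04 and 0.08). The coactivator gene Ppargc1a, the untested one, lay at or near the floor in every group (4.05 to 4.85). Under MYCi975 the zinc finger factor gene Yy1 differed by 0.28 (95% interval 0.04 to 0.52, limma adjusted p = 0.9987). Pprc1, a coactivator of the same family as Ppargc1a, differed by 0.29 (0.02 to 0.56, limma adjusted p = 0.9987). Under the combination Nrip1, a corepressor gene, differed by 0.26 and Hcfc1, a transcription cofactor gene, by 0.16.

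**Figure D5:**
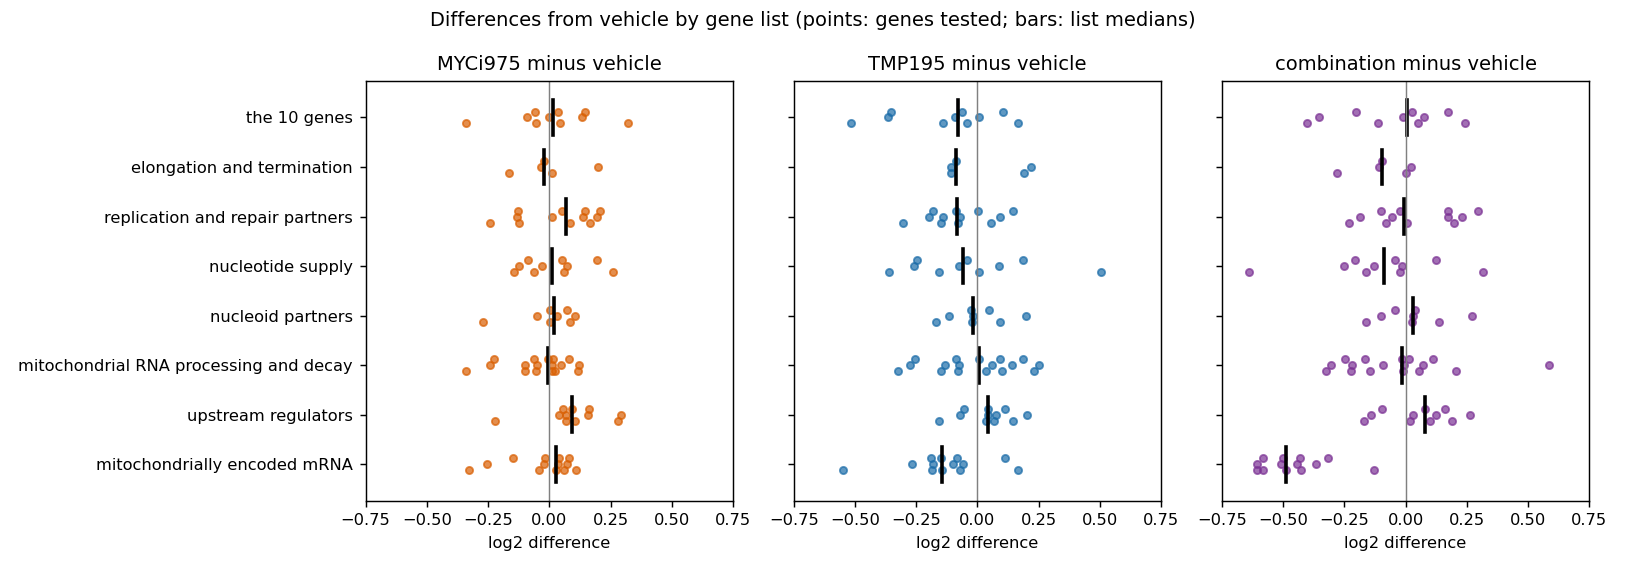
Differences from vehicle (x axis, log2) of the genes of each list (1 row per list) in the 3 treated groups, with 1 point per tested gene and a bar at the list median. The plotted lists are the 10 genes, their partner lists and the 13 mitochondrially encoded mRNAs, and the medians shown lie between -0.10 and 0.09 except for the mRNAs, at -0.15 under TMP195 and -0.49 under the combination.

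As a description without a test, the tested genes whose pattern over the 14 libraries was most like each member were sought among 13701 others. Like the mean of the standardised members were 9930012K11Rik (r = 0.90), Gm14418, Nup37, Nob1 (0.85 each) and Strbp (0.84). The nearest single gene was Ankrd13d for Tfam (r = 0.91), Tardbp for Ssbp1 (0.91), Olfr839-ps1 for Tfb2m (0.90), Arhgap6 for Twnk (0.88), Rab5b for Tfb1m (0.87) and Usf3 for Gabpa (0.87). It was Strap for Polrmt (0.85), AC123927.2 for Nrf1 (0.81), Sugp2 for Polg2 (0.79) and Plag1 for Polg (0.75).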

How the data were processed

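Total RNA from 14 LLC1 tumour libraries was sequenced by the authors (Takara SMARTer stranded total RNA kit, per the labels' protocols). Salmon and the human build hg38 are listed, with no version or role, per the submitters' processing notes, although the deposited IDs are mouse Ensembl IDs, so the reference used is not certain. The deposited values are log2, variance-stabilised counts per gene made by the authors (per the name of the table and its values); raw counts were not used here, and depth is unknown.

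IDs were matched to symbols by ID without its version, and 20264 of 21152 (95.8%) matched. Genes whose mean lay more than 1 unit above the floor were tested with limma 3.58.1 (R 4.3.3), 1 mean per group over all 14 libraries, an intensity trend, and Benjamini-Hochberg adjustment over 13711 genes (two-sided, threshold 0.05, residual degrees of freedom 10). The fit was tested on simulated data with independent noise and differences of 1 or 2 log2 units in the combination group. These exceed every member difference reported, so detection of smaller differences was not tested. Intervals cover 95%. Correlations used 100000 permutations (two-sided, scipy 1.17.1). Likeness and list genes were named by rule: of each list up to 2 genes with the smallest p in the comparison, and always Myc, Ppargc1a, Ptprc and mt-Rnr2. Epcam and mt-Co2 are named outside that rule, after their values were seen, as are those so described in the text. The members and lists were chosen with earlier results of these data known. Sequences are RefSeq promoters of GRCm38.p6, used for letters only.

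The alternatives were leaving out each library, the replicate number as a block, a fit of the compared groups alone, weighted libraries, scaling by quantiles or by the median, other moderation, and no filter or a stricter one (2 units above the floor). Labels give replicate numbers in every group without saying that they mark shared animals or days.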

Additional observations from a re-analysis of the deposited data

Results flagged for a closer look

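In groups of 4 libraries, 1 library stood far from the other 3 in 3 of the 20 gene and group combinations looked at, where chance gives about 1 in 20. Tfam in vehicle replicate 4 was 8.445, which is 0.75 above the next vehicle library, a gap of 0.903 of the group's range. Polg in MYCi975 replicate 1 was 7.402, which is 0.46 below the next library (0.836 of the range). Twnk in MYCi975 replicate 2 was 6.574, which is 0.58 below the next library (0.855 of the range). Vehicle replicate 4 also had the most mitochondrially encoded mRNA of all 14 libraries, and MYCi975 replicate 2 the most genes at the floor (2954) and the highest leukocyte level (1.18, centred over libraries).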

How the results depend on the processing

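No member and no gene was called in the 6 planned comparisons under any alternative that could be run, nor in the 2 contrasts by agent that were added after the data were seen. Restricting the fit to the groups compared gave no value for the interaction and for those 2 contrasts. The stricter filter left out Tfb1m (mean over libraries 5.75) and Polg2 (5.51), which lay too near the floor for it. The median member difference of the combination against TMP195 was 0.11 and ran from 0.0274 (without TMP195 replicate 2) to 0.13 when 1 library was left out. Of 1794 recomputed differences of single members 90 had the other sign, none of them called. The relation of Polg2 with the 13 mitochondrially encoded mRNAs kept its sign everywhere. Its adjusted p, recomputed over the 40 relations, was 0.066 after median centring (r = -0.74) and 0.079 after quantile normalisation (r = -0.76), and leaving out 1 library gave r from -0.80 to -0.70. The cause was not tested. These Polg2 alternatives were chosen after seeing the data.

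With the replicate number as a replicate block, 0 members and 0 genes were called, and the median member difference was -0.06 for TMP195 and -0.004 for the combination against vehicle. The Tfam difference by TMP195 was -0.22 with the block. Only vehicle and MYCi975 have a replicate 4, so with the block those libraries, vehicle replicate 4 included, carry no weight in this contrast. The numbers share no stated source: same-numbered libraries had deviations correlated above 0.1 in 6 of 19 pairs (median 0.04), and differently numbered ones in 14 of 54 (median -0.004). Depth is unknown, and groups of 3 and 4 libraries leave wide intervals around each difference (-0.74 to 0.01 for Tfam under TMP195).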
